A study of Homo sapiens with 24 samples.

Results

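Collagen is the main structural protein family of the extracellular matrix, and 42 genes that encode collagen chains were examined here. They are a list of gene symbols, chosen with earlier results of these data known and matched by Ensembl identifier among 60623 distinct genes. The list holds 11 fibrillar chains, 6 chains of the basement membrane type IV collagens, 10 chains of FACITs (collagens with interrupted triple helices that sit on fibrils) and 15 other chains. RNA was sequenced from 4 human lung cancer cell lines, with 3 independent biological replicates in each of 8 groups. In A549 and H1299, lines of non-small cell lung cancer, cells overexpressing HEPACAM2 (labelled OE) were set against control cells with the genotype label WT. In DMS454 and H1694, lines of small cell lung cancer, libraries labelled CRISPR with the genotype label HEPACAM2 knockdown were set against libraries labelled control with the genotype label WT. HEPACAM2 is a cell adhesion molecule of the immunoglobulin superfamily, and the title of the series names cell-matrix interactions. Neither the vector and guide nor whether cells were clones or pools is given in the labels.

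Each collagen molecule is a triple helix of 3 chains. Chains are hydroxylated and folded in the endoplasmic reticulum, secreted, trimmed by proteases and crosslinked outside the cell. Fibrillar collagens such as types I and V form the fibrils of connective tissue and tumour stroma, and fibroblasts are their usual source. Type IV collagens form the network of the basement membrane on which epithelial cells rest. Integrins and discoidin domain receptors on the cell surface bind collagen.

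The targeted gene was read first. HEPACAM2 averaged 6007 ± 124 normalized counts in A549 OE libraries, against 0.367 ± 0.635 in control libraries (SD, n = 3 each). In H1299 it averaged 25322 ± 1795 in OE libraries, against 2.88 ± 0.724 in control libraries. In DMS454 it averaged 11187 ± 314 in the libraries labelled CRISPR, against 6550.1 ± 124 in those labelled control, and in H1694 10356 ± 214, against 3557 ± 127. HEPACAM2 mRNA was therefore higher in the libraries labelled CRISPR in both small cell lines, which goes against the knockdown label, and no direction of HEPACAM2 function can be drawn from those comparisons. An exchange of the arms in the labels would turn every sign given below for DMS454 and H1694, and it was not tested. The files do not show HEPACAM2 protein or the sequence of the edited locus.

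The smallest and largest library of A549 held 16358272 and 29838960 reads. For H1299 these totals were 12704476 and 20332419, for DMS454 15652553 and 30241598, and for H1694 19682771 and 31770858. Some libraries stood apart from their group. Over all genes, the chi-square per degree of freedom between 2 libraries of a group was 18.5 to 26.9 for H1299 pairs that held library 1 of either group, against 2.45 and 5.97 for the pairs without it. It was 14.4 and 18.8 for pairs with DMS454 labelled CRISPR library 3, and 17.1 and 23.8 for pairs with H1694 labelled CRISPR library 1, against 3.09 and 3.22 for the remaining pair of each. Epithelial markers, led by KRT8 and KRT18, were high in A549, and KRT8 led them in DMS454. In H1299 KRT8 and KRT18 alone of the 5 had enough counts to test, and CDH1 was not analysed here. H1694 departed from that pattern, with an epithelial sum of 196 to 242 in labelled CRISPR libraries and 298 to 323 in labelled control libraries, while CDH5, otherwise an endothelial marker, led an endothelial sum of 3669.6 to 3806 and 3119 to 3188.

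The lines differed in which collagen chains they expressed. Values per library are given below as deposited normalized counts (read counts divided by a size factor for depth), and levels of different genes are compared as RPKM, the read count scaled to exon length and to the library total. The 4 tables were normalized separately, so levels set side by side across lines were not tested. Of the 42 genes, 33 had values in A549 and 25 in H1299, where the remaining 9 and 17 were not analysed here. All 42 had values in DMS454 and H1694. The lowest deposited mean of any gene was 1.13 in A549 and 1.47 in H1299, while genes with a mean of 0 were kept in DMS454 and H1694. Genes were tested where either group averaged 10 or more normalized counts. This left 27 collagen genes in A549, 18 in H1299, 25 in DMS454 and 20 in H1694. The 7 genes tested in all 4 lines were COL1A1, COL5A2, COL11A2, COL4A4, COL9A3, COL16A1 and COL7A1. COL5A3, COL9A1, COL14A1, COL19A1 and COL10A1 were tested in none. COL22A1 in A549 and COL4A4, COL9A3 and COL8A1 in H1299 reached that level in OE libraries alone, and COL24A1 in A549 in control libraries alone, so each could be tested because it was high in that group. Their calls are included in the counts below but add no support to them.

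In A549, COL5A2, a chain of the fibril-regulating type V collagen, was the most abundant, at 49.0 ± 1.08 RPKM in OE libraries and 58.6 ± 1.21 RPKM in control libraries (SD, n = 3 for each mean of RPKM). COL18A1, whose product lies in basement membranes and releases endostatin, followed at 45.7 ± 2.05 RPKM in OE and 38.5 ± 1.22 RPKM in control libraries. In H1299, COL6A2 averaged 37.3 ± 7.87 RPKM in OE and 13.8 ± 3.66 RPKM in control libraries, COL6A1 28.1 ± 5.74 and 12.1 ± 3.04, and COL18A1 19.0 ± 4.79 and 9.89 ± 3.25. Means of neighbours in that order differed by less than their SDs in the control libraries. Each control library by itself kept the order, since the genes were measured in the same libraries. The order was not tested. DMS454 was led by a pair of FACITs, COL22A1 at 31.0 ± 1.01 RPKM in labelled CRISPR and 29.2 ± 0.728 RPKM in labelled control libraries, and COL21A1 at 13.6 ± 2.02 and 16.9 ± 0.539. H1694 was led by COL9A3, a chain of the cartilage FACIT type IX, at 19.9 ± 2.01 RPKM in labelled CRISPR and 18.5 ± 0.947 RPKM in labelled control libraries. In the H1694 control libraries COL1A2 came next, at 3.82 ± 0.290 RPKM in labelled CRISPR and 4.97 ± 0.173 RPKM in labelled control libraries. No gene was among the leading 3 of the control libraries in all 4 lines.

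In H1694, 7 collagen genes had 0 reads in all 6 libraries, COL3A1, COL4A1, COL4A2, COL6A3, COL8A1, COL25A1 and COL26A1. A count of 0 in 148533875 reads allows up to 3 reads, or 0.0202 CPM (counts scaled to the library total alone), a limit that covers counting error only. COL10A1 and COL23A1 had 0 reads in all 6 DMS454 libraries, which allows up to 0.0223 CPM.

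**Figure D1:**
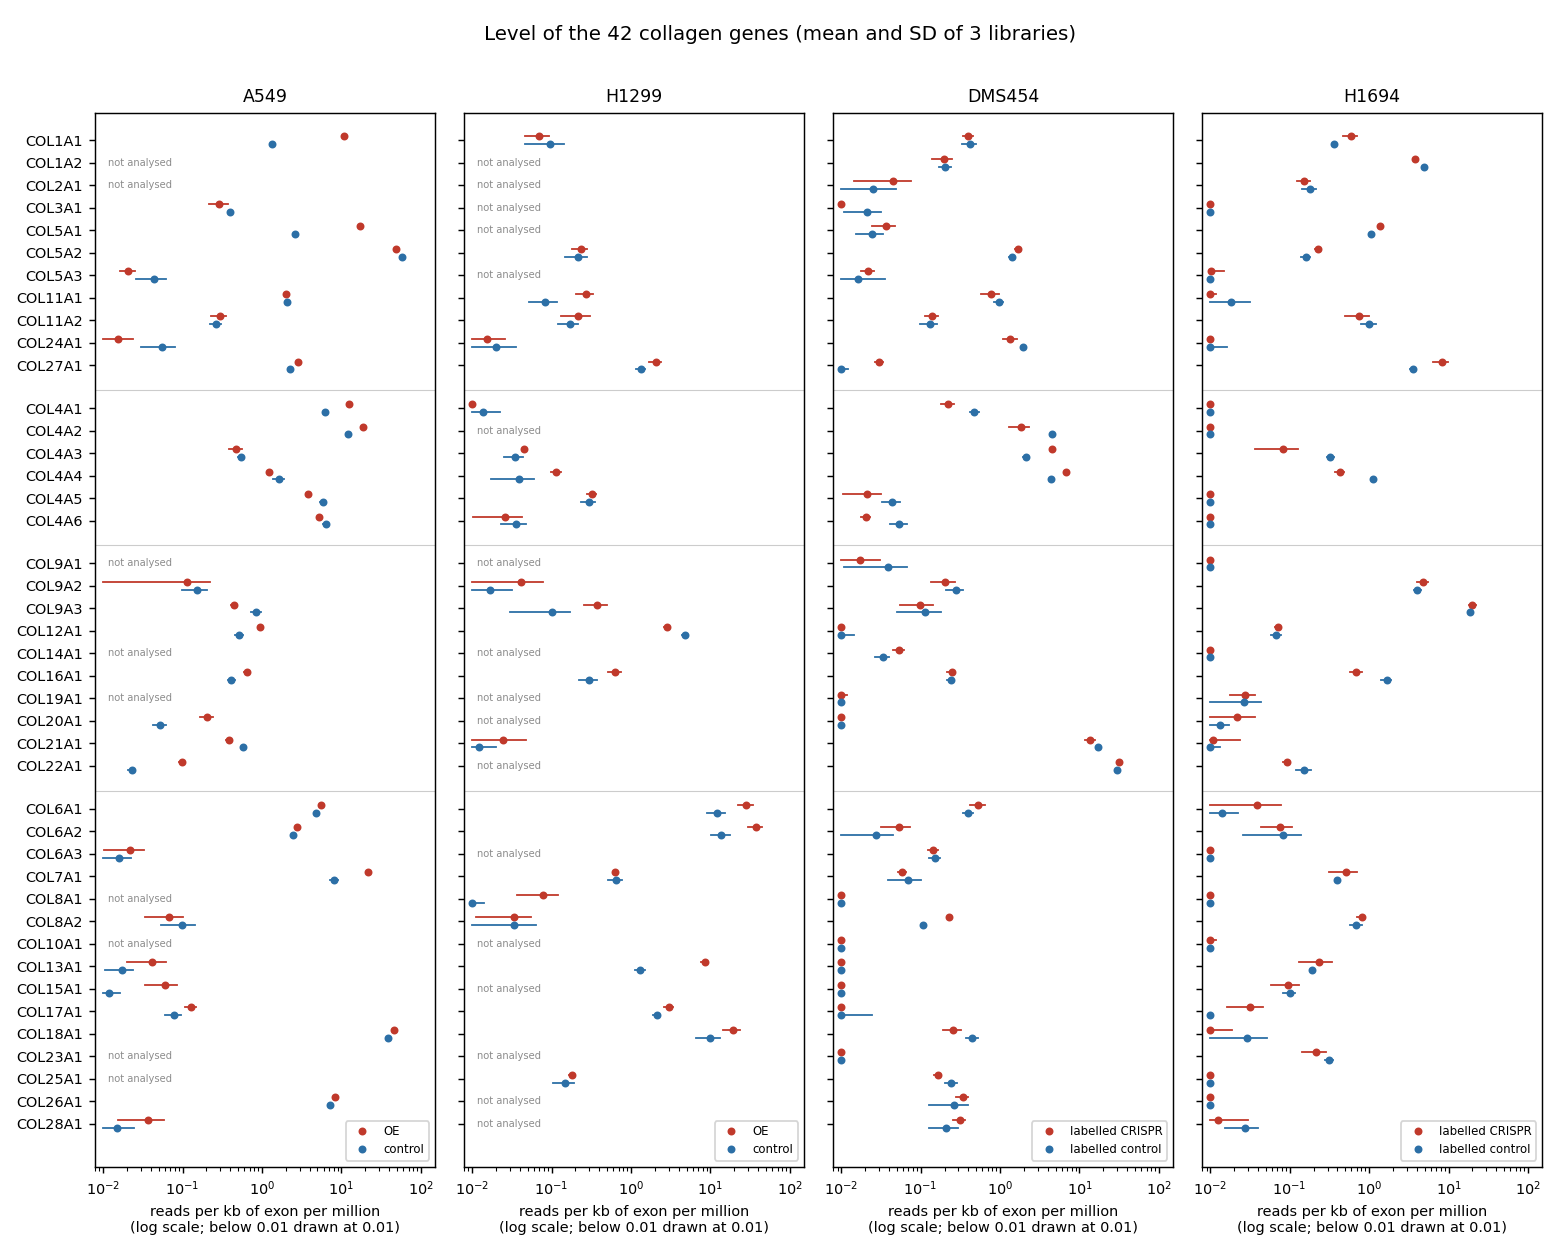
Level of each of the 42 genes in RPKM (log axis, values under 0.01 drawn at 0.01), with points for the mean and bars for the SD of 3 libraries. OE or labelled CRISPR libraries are red and control libraries blue, and genes not analysed here in a line are marked so. COL5A2 and COL18A1 stand highest in A549, COL6A1 and COL6A2 in H1299, COL22A1 in DMS454 and COL9A3 in H1694.

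Each line was compared with its own control libraries by limma on log2(normalized count + 1), with Benjamini-Hochberg adjustment over all genes tested in that line and a threshold of 0.05 on the adjusted p. Fold changes on that scale understate the change of genes with low counts. In A549, 13 of 27 tested collagen genes were higher and 7 lower in OE cells, where 44.4% of the 16707 genes tested passed in either direction, 22.5% higher and 21.9% lower. Their median log2 fold change was 0.19, against -0.0019 over all genes. OE values lay wholly outside the control range for 23 of the 27, against 51.8% of all genes, and 7 passed with a log2 fold change of at least 1 in size, against 5.77%. Those 7 include COL22A1, tested through OE libraries alone, and COL24A1, tested through control libraries alone. In H1299, 11 of 18 were higher and 1 lower in OE cells, with a background of 28.8% in either direction, 13.5% higher and 15.3% lower. The median was 0.71, against 0.0018 over all genes, and the libraries of 11 of the 18 did not overlap, against 43.3% of all genes. There 8 passed with a change of at least 1, against 5.08%. Both those 8 and the 11 higher include COL4A4, COL9A3 and COL8A1, which could be tested through OE libraries alone.

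DMS454 gave 3 higher and 4 lower of 25 in the libraries labelled CRISPR, with a background of 18.9% in either direction, 9.15% higher and 9.72% lower. The median was -0.10, against 0.00036 over all genes, and the libraries of 13 of the 25 did not overlap, against 36.6% of all genes, and 3 passed with a change of at least 1, against 1.84%. H1694 gave 3 higher and 4 lower of 20, with a background of 17.6% in either direction, 8.73% higher and 8.9% lower. The median there was 0.07, against -0.00096 over all genes. Libraries of 9 of the 20 did not overlap, against 35% of all genes, and 4 passed with a change of at least 1, against 1.34%. In all, 28 of the 42 genes passed in at least 1 line, 8 of them in both directions over the lines, and 9 of those tested passed in none. The matching shares over all genes were not computed, so these counts cannot be read as particular to collagen genes.

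The libraries that stood apart bore on the collagen counts of DMS454 and H1694 more than on that of H1299, while the background rose in each line. Without both H1299 libraries numbered 1, 10 of 17 tested collagen genes were higher and 1 lower. The background was then 54.9%, with 4383 genes higher and 4539 lower of 16243. Without DMS454 labelled CRISPR library 3, 3 of 26 were higher and 8 lower, in a background of 34.9% (3159 higher and 3446 lower of 18900). Without H1694 labelled CRISPR library 1, 6 of 20 were higher and 4 lower, in a background of 25.3% (2253 higher and 2257 lower of 17843).

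**Figure D2:**
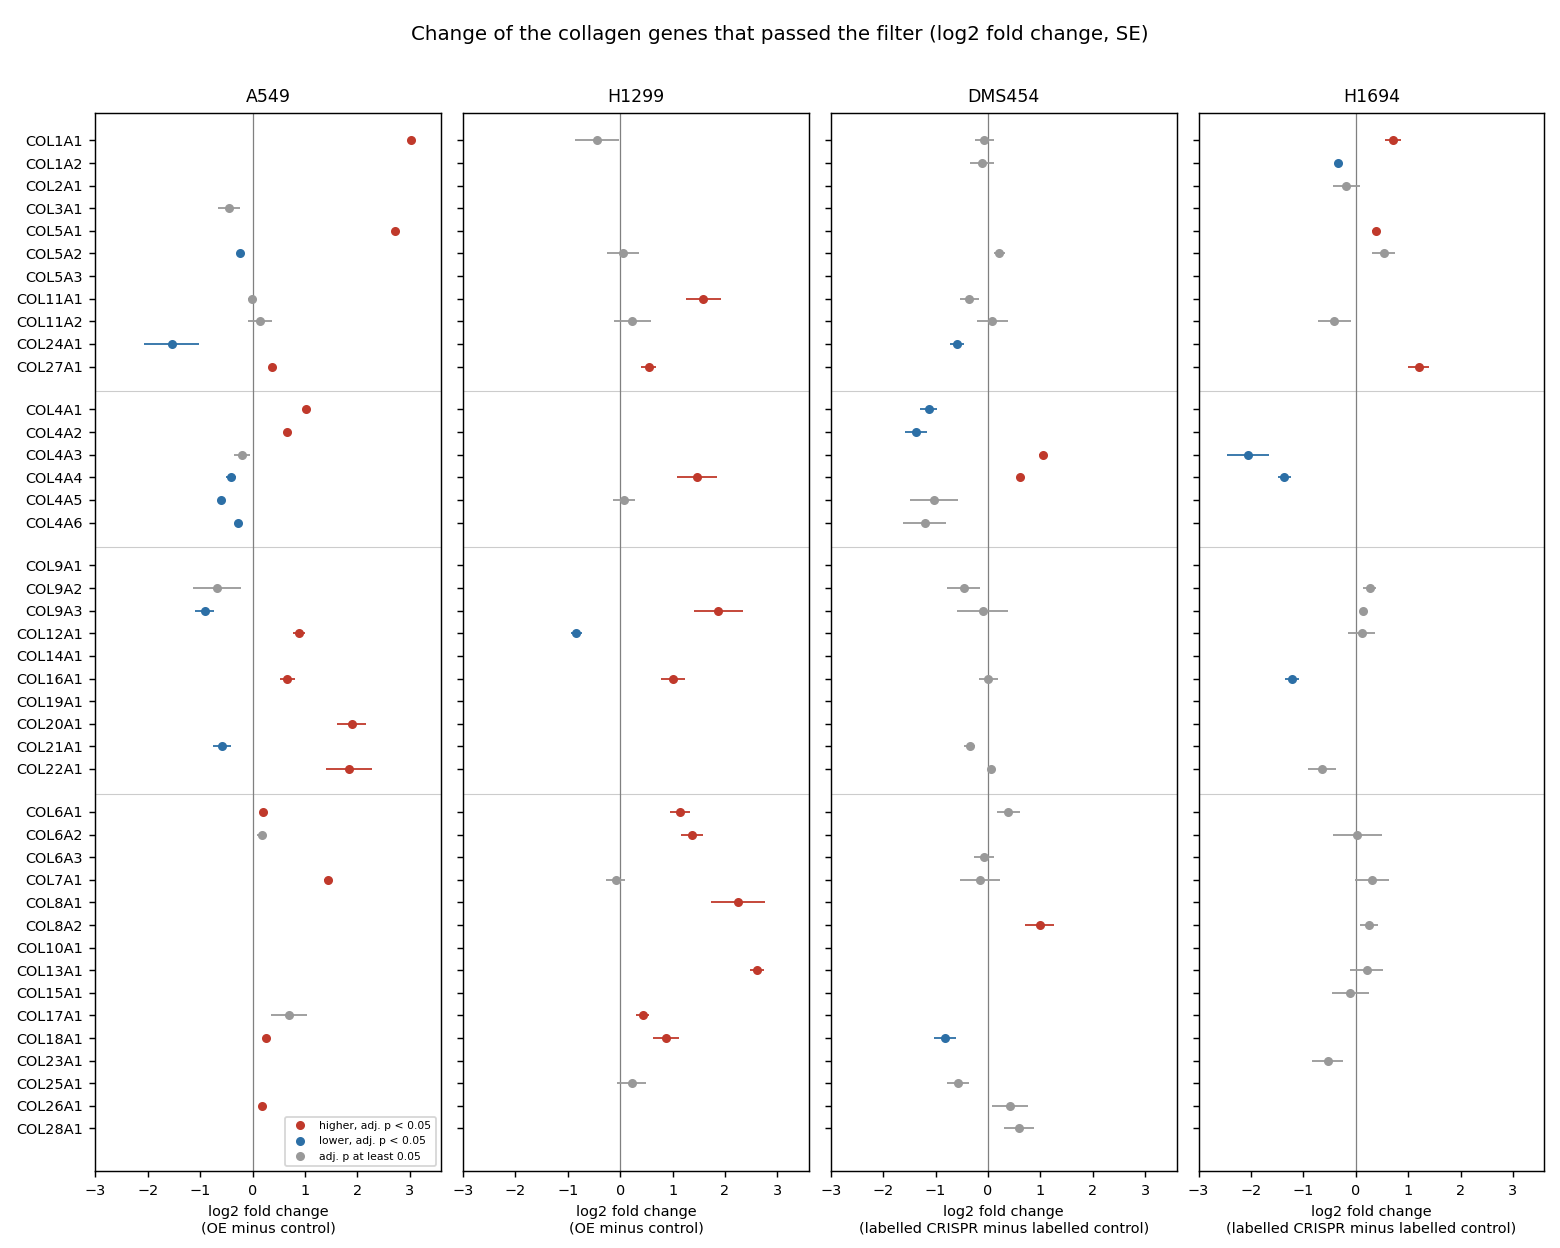
Log2 fold change of each tested collagen gene in the 4 lines, OE minus control or labelled CRISPR minus labelled control, with bars for the SE. Red points were higher and blue points lower at an adjusted p under 0.05, and grey points did not pass. COL1A1 and COL5A1 lie farthest to the right in A549 and COL13A1 in H1299, while COL4A3 lies farthest to the left in H1694.

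Fibrillar collagens. The largest changes in A549 were those of COL1A1, a chain of type I collagen, the main fibril protein of bone, skin and stroma, and COL5A1, a chain of type V collagen, which sets fibril diameter. Of 8 tested fibrillar genes in A549, 3 rose and 2 fell in OE cells, against 22.5% higher and 21.9% lower over all genes. COL24A1, among those that fell, could be tested through its control libraries alone. COL1A1 had 2148, 2149 and 2009.6 normalized counts in OE libraries, against 263, 256 and 252 in control libraries. All 3 OE libraries lay far above the 3 control libraries, with a log2 fold change of 3.03 (SE 0.06, limma adjusted p = 7.31e-39), or 8.15-fold. COL5A1 had 4011, 3591 and 3771 in OE libraries and 549.9, 573 and 613 in control libraries. These did not overlap either, with a change of 2.71 (SE 0.05, adjusted p = 2.31e-39). COL5A2, the partner chain of COL5A1 in type V collagen, went the opposite way, with 7539, 7136 and 7237 in OE libraries and 8771, 8709 and 8495 in control libraries. Its OE libraries lay below the control libraries by a small margin, a log2 fold change of -0.25 (SE 0.04, adjusted p = 1.21e-07).

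COL27A1, a chain of the minor fibrillar type XXVII, rose in A549 by 0.37 (SE 0.06). COL24A1, of the minor fibrillar type XXIV, fell by 1.55 (SE 0.53, adjusted p = 0.0149) at a low level, with 1.18, 4.03 and 3.67 in OE libraries and 8.80, 16.1 and 6.62 in control libraries. That call was lost without OE library 1 (log2 fold change -1.16, adjusted p = 0.0704). COL3A1, COL11A1 and COL11A2 did not pass, with changes of -0.45, -0.02 and 0.15. COL1A2, which supplies the remaining chain of type I collagen, was not analysed here in A549.

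Markers of fibroblasts and epithelium moved in the same A549 libraries. The fibroblast list, 4 of whose 6 genes had values, summed to 273 to 292 normalized counts in OE libraries and 74.7 to 88.0 in control libraries. Of the 3 tested, THY1 (log2 fold change 1.91) and PDGFRA (2.24) rose and LUM did not pass. PDGFRA ranked below THY1 and LUM within those sums, and whether both groups reached the level for its test is not given here. PDGFRB was too low to test, and DCN and FAP were not analysed here. All 5 epithelial markers fell, EPCAM most (-1.01), and the epithelial sum was 130892 to 136827 in OE libraries and 161574 to 170341 in control libraries. The part of either in the collagen changes was not tested. In RNA from whole cultures, fewer cells of a type and less RNA per cell cannot be told apart.

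In H1299 the fibrillar genes were low. COL1A1 had 7.14, 13.3 and 14.1 normalized counts in OE libraries and 26.2, 10.2 and 13.5 in control libraries. Those libraries overlapped, with a change of -0.45 (SE 0.42, adjusted p = 0.456), and without both libraries numbered 1 it was 0.20. COL11A1, a fibrillar chain known from cartilage, was clearly apart, with 31.2, 50.4 and 43.1 in OE libraries and 14.0, 18.4 and 8.32 in control libraries, a rise of 1.58 (SE 0.33, adjusted p = 0.0079). COL27A1 had 413, 564 and 469 in OE libraries and 378, 303 and 309.9 in control libraries. It rose by 0.54 (SE 0.14, adjusted p = 0.0189), but the adjusted p was between 0.0593 and 0.0810 when OE library 2 or 3 or control library 2 or 3 was left out.

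In H1694 the type I chains differed in direction. COL1A1 had 112, 144 and 166 normalized counts in labelled CRISPR libraries and 80.6, 84.1 and 91.0 in labelled control libraries, without overlap, and was higher by 0.70 (SE 0.15, adjusted p = 0.005). COL1A2 was the more abundant chain, with 967, 1031 and 1135 in labelled CRISPR libraries and 1377, 1305 and 1289 in labelled control libraries. It was lower in all 3 labelled CRISPR libraries, by -0.34 on the log2 scale (SE 0.06, adjusted p = 0.000894). COL5A1 was higher, with 364, 372 and 379 in labelled CRISPR libraries and 268, 294 and 289.8 in labelled control libraries (0.39, SE 0.08, adjusted p = 0.00341). COL27A1 had 2089, 3052 and 3269.8 in labelled CRISPR libraries and 1167, 1124 and 1298.8 in labelled control libraries. Library 1 of the labelled CRISPR group was the lowest of its 3 yet above all control libraries, and the change was 1.20 (SE 0.20, adjusted p = 0.0231). This last limma call depended on the libraries used. The adjusted p was 0.0536 to 0.0874 without labelled CRISPR library 2 or 3 or without any 1 labelled control library. Without labelled CRISPR library 1 it was 8.4e-14, with a change of 1.40. On all 6 libraries COL27A1 passed by edgeR (adjusted p = 0.000167) and by DESeq2 (adjusted p = 2.67e-08) too.

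In DMS454, COL1A1 and COL1A2 overlapped between the groups, with changes of -0.07 (SE 0.19) and -0.11 (SE 0.23). Of 6 tested fibrillar genes there, COL24A1 was the 1 that passed, against 18.9% of all genes. It had 259, 227 and 343 normalized counts in labelled CRISPR libraries and 386, 400.2 and 441 in labelled control libraries, lower in every labelled CRISPR library by -0.58 on the log2 scale (SE 0.13, adjusted p = 0.0109), and the adjusted p was 0.0622 without labelled control library 3.

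Type IV collagens. The 6 type IV genes lie as 3 pairs on chromosomes 13, 2 and X, each pair transcribed away from a shared promoter region. COL4A1 and COL4A2 encode the chains of the widespread basement membrane network, COL4A3, COL4A4 and COL4A5 those of the network of kidney glomerulus and lung alveolus, and COL4A6 a chain that joins COL4A5 in smooth muscle and some epithelia. In the RefSeq promoter table (GRCh38.p14) the annotated starts were 127 bases apart for COL4A1 and COL4A2, 419 for COL4A4 and COL4A3, and 380 for COL4A6 and COL4A5. The bases between the starts are shown because both partners of a pair passed in the same direction in several comparisons. They are given on the plus strand, 5′ to 3′, up to the base before the start of COL4A2, COL4A3 or COL4A5, whole for the first pair and for the nearest 250 bases in the others. Capitals mark CCAAT or GGGCGG on either strand.
COL4A1 and COL4A2, chr13:110307158-110307283: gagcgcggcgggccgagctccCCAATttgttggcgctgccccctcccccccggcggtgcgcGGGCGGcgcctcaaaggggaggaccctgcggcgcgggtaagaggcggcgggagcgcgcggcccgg
COL4A4 and COL4A3, chr2:227164374-227164623: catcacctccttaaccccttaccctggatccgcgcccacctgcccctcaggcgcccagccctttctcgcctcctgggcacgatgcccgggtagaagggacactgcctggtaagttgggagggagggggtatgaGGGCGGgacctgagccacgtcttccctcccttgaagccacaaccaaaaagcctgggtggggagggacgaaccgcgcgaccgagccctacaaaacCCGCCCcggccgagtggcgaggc
COL4A6 and COL4A5, chrX:108439588-108439837: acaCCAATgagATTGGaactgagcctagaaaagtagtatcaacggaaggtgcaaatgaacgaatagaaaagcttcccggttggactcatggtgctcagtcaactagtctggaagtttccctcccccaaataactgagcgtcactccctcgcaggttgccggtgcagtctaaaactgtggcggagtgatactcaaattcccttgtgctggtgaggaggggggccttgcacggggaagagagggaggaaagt
The stretches contained 80.2%, 66.4% and 51.2% G or C in that order. CCAAT occurred 1, 0 and 2 times and GGGCGG 1, 2 and 0 times. Neither TATAAA nor CAGACA, the other motifs searched on both strands, occurred. Of all 35116 promoters in the table, each 300 bases long, 34.6% held CCAAT, 44.95% GGGCGG, 11.5% TATAAA and 16.9% CAGACA, so these letters are common. A promoter entry was found for 31 of the 42 collagen genes. COL1A1, COL1A2, COL2A1, COL3A1, COL5A2, COL8A1, COL9A3, COL14A1, COL20A1, COL22A1 and COL6A1 had none.

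COL4A1 and COL4A2 rose together in A549 OE cells and were lower together in DMS454 libraries labelled CRISPR. In A549, COL4A1 had 3713, 3522 and 3809 normalized counts in OE libraries and 1835, 1799.6 and 1817 in control libraries, a clear separation, with a log2 fold change of 1.02 (SE 0.04, limma adjusted p = 1.28e-25). COL4A2 had 7310.5, 6976 and 7602 in OE libraries and 4547, 4712 and 4657 in control libraries, again without overlap (0.65, SE 0.04, adjusted p = 8.16e-20). COL4A5, COL4A6 and COL4A4 fell in the same libraries. COL4A5 had 918, 941 and 881 in OE libraries and 1513, 1307 and 1341 in control libraries (-0.60, SE 0.05, adjusted p = 2.36e-13), and COL4A6 956, 1023 and 941 against 1265, 1139.6 and 1132 (-0.28, SE 0.05, adjusted p = 2.55e-05). COL4A4 fell, with 239, 252 and 242 in OE libraries and 377, 329 and 276 in control libraries (-0.41, SE 0.09), while its partner COL4A3 overlapped between the groups (-0.20, SE 0.15, adjusted p = 0.299).

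In DMS454 the COL4A1 and COL4A2 pair and the COL4A3 and COL4A4 pair went in opposite directions. COL4A2 had 659.6, 587 and 1010.0 normalized counts in labelled CRISPR libraries and 1863, 1980.1 and 1888 in labelled control libraries. Library 3 of the labelled CRISPR group was the highest of its 3 but well below the labelled control libraries, and the change was -1.38 (SE 0.21, adjusted p = 0.00999). Leaving out labelled CRISPR library 1 put it at the threshold (-1.31, adjusted p = 0.0504), and leaving out labelled CRISPR library 3 gave -1.62 (adjusted p = 1.36e-23). COL4A1 had 67.4, 56.6 and 84.6 in labelled CRISPR libraries and 136, 173 and 149 in labelled control libraries (-1.14, SE 0.17, adjusted p = 0.000678).

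The same libraries had more COL4A3 and COL4A4. COL4A3 had 872, 896 and 870.4 normalized counts in labelled CRISPR libraries and 434, 451 and 388 in labelled control libraries, a tight separation (1.05, SE 0.07, adjusted p = 2.01e-06). COL4A4 had 1422, 1471 and 1513 against 949, 965 and 986 in labelled control libraries (0.60, SE 0.05, adjusted p = 1.27e-05). COL4A5 and COL4A6 were low, at most 7.95 in labelled CRISPR libraries and 14.7 in labelled control libraries, and their changes of -1.04 and -1.21 did not pass (adjusted p = 0.139 and 0.061).

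In H1694 the COL4A3 and COL4A4 pair was lower in the libraries labelled CRISPR, the direction opposite to DMS454. COL4A3 had 7.59, 19.4 and 28.1 normalized counts in labelled CRISPR libraries and 65.2, 68.3 and 78.8 in labelled control libraries. Labelled CRISPR library 1 was the lowest, and all 3 lay below the labelled control libraries (-2.06, SE 0.39, adjusted p = 0.00651, and -1.55 without that library). COL4A4 had 89.4, 115 and 111 in labelled CRISPR libraries and 275, 258 and 283 in labelled control libraries (-1.37, SE 0.12, adjusted p = 1.21e-06). The 4 other type IV genes were not tested in H1694, with COL4A1 and COL4A2 at 0 reads and COL4A5 and COL4A6 at no more than 2.53 normalized counts in any library.

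H1299 had little type IV collagen RNA. COL4A4 was low, with 18.7, 22.6 and 17.6 normalized counts in OE libraries and 4.36, 11.2 and 5.20 in control libraries. The groups did not overlap and the change was 1.47 (SE 0.38, adjusted p = 0.0204), but the adjusted p was 0.0575 to 0.0778 without OE library 2 or 3 or control library 3. COL4A5 overlapped (0.07, SE 0.21, adjusted p = 0.827). COL4A1, COL4A3 and COL4A6 had too few counts to test, and COL4A2 was not analysed here. COL4A4 was thus the 1 collagen gene that passed in all 4 lines, in H1299 through its OE libraries alone reaching the level for the test. It was higher in H1299 OE and DMS454 labelled CRISPR libraries and lower in A549 OE and H1694 labelled CRISPR libraries.

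**Figure D3:**
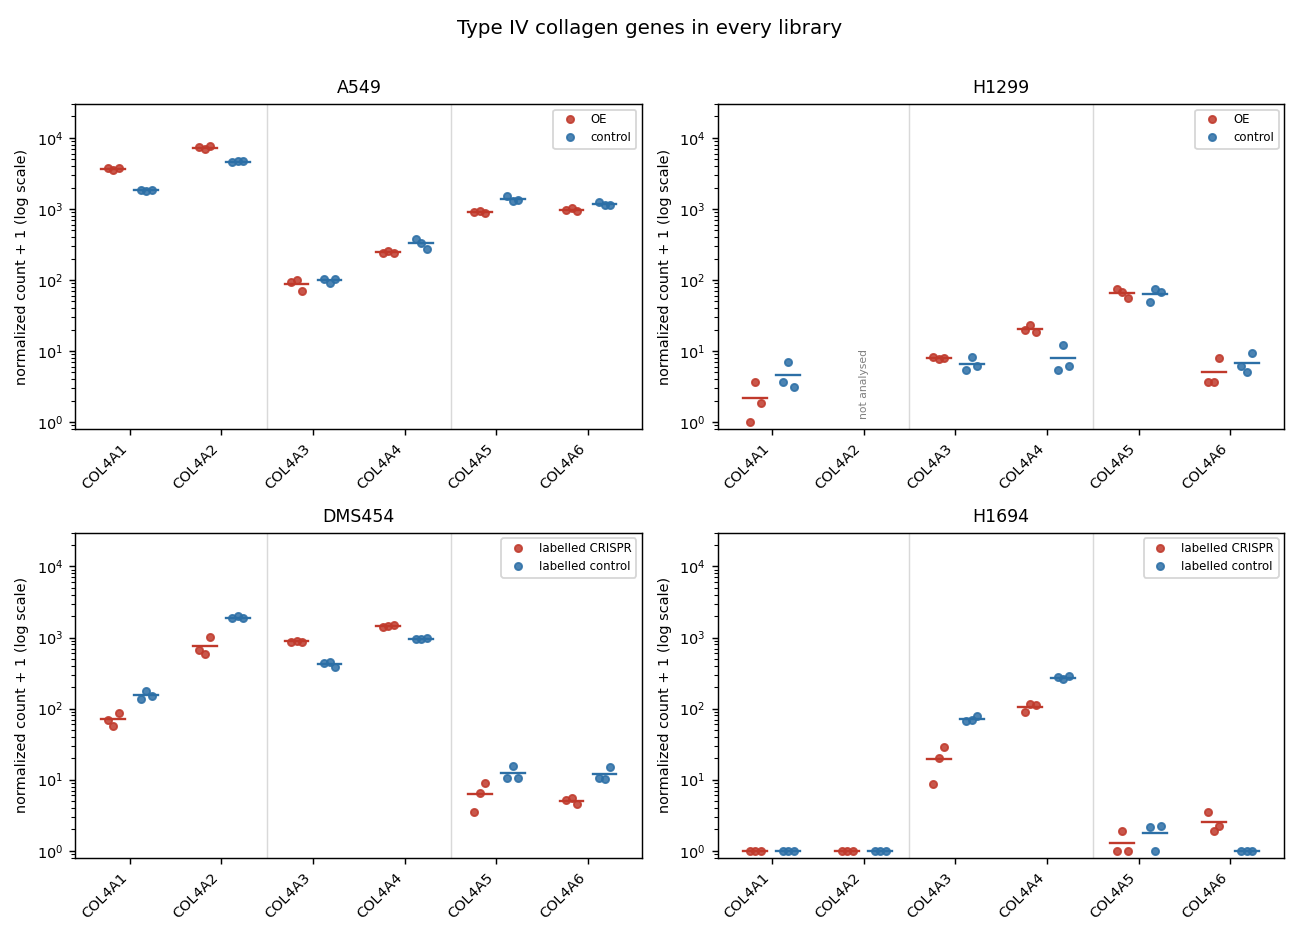
Normalized counts plus 1 (log axis) of the 6 type IV genes in every library of the 4 lines, with red points for OE or labelled CRISPR libraries, blue points for control libraries and bars for group means. The head-to-head partners COL4A1 and COL4A2, and COL4A3 and COL4A4, shift together in DMS454, while COL4A1 and COL4A2 lie at 0 counts in H1694.

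FACITs. These collagens do not form fibrils themselves but decorate them. In A549, 4 of 7 tested FACIT genes rose and 2 fell in OE cells, and in H1299 2 of 3 rose and 1 fell. Over all genes 44.4% passed in A549 and 28.8% in H1299. Among those that rose, COL22A1 in A549 and COL9A3 in H1299 could be tested through OE libraries alone. COL12A1, which links fibrils in dense connective tissue, changed in opposite directions. In A549 it had 228, 255 and 229 normalized counts in OE libraries and 144, 116 and 126 in control libraries, higher in all 3 (0.88, SE 0.11, limma adjusted p = 4.17e-09). In H1299 it had 652, 599.8 and 540.3 in OE libraries and 976, 1061 and 1169.9 in control libraries, lower in all 3 (-0.84, SE 0.10, adjusted p = 0.000702). COL9A3 was the reverse. In A549 it had 41.4, 45.9 and 40.4 in OE libraries and 75.9, 96.6 and 72.2 in control libraries (-0.91, SE 0.18, adjusted p = 4.47e-05). In H1299 it had 24.1, 26.5 and 42.2 against 3.49, 15.3 and 7.28 in control libraries (1.87, SE 0.47, adjusted p = 0.0174). Neither pair of groups overlapped, though the H1299 call was lost without OE library 3 or control library 3 (adjusted p = 0.0765 and 0.0615). In H1694, where COL9A3 was the most abundant collagen RNA per length, it overlapped between the groups (0.14, SE 0.07, adjusted p = 0.196), and without labelled CRISPR library 1 it passed at 0.20 (adjusted p = 0.0203).

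COL16A1, a FACIT of basement membrane zones and small fibrils, rose in both overexpressing lines. In A549 it had 127, 126 and 110.1 normalized counts in OE libraries and 83.6, 70.1 and 73.5 in control libraries (0.67, SE 0.14, adjusted p = 0.000148). In H1299 it had 81.2, 115 and 98.4 in OE libraries and 62.8, 46.0 and 38.5 in control libraries. The groups were apart and the change was 1.002 (SE 0.22, adjusted p = 0.0107), with an adjusted p of 0.0508 without OE library 2. In H1694 it was lower in the libraries labelled CRISPR, with 127, 167 and 179 against 385, 310.1 and 405 in labelled control libraries (-1.22, SE 0.14, adjusted p = 5.75e-05), and in DMS454 it overlapped (0.01, SE 0.19).

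At low levels in A549, COL20A1 had 39.0, 40.3 and 55.0 normalized counts in OE libraries and 8.80, 12.6 and 12.6 in control libraries (1.89, SE 0.28, adjusted p = 2.1e-07). COL22A1, known from tissue junctions such as muscle and tendon, reached the level for the test in OE libraries alone and had 16.6, 13.7 and 15.9 in OE libraries and 3.30, 3.45 and 3.97 in control libraries (1.84, SE 0.44, adjusted p = 0.000531). COL21A1 fell (-0.58, SE 0.17, adjusted p = 0.00362). Both COL22A1 and COL21A1 were abundant in DMS454. There COL22A1 had 5211, 5269.8 and 5119.9 in labelled CRISPR libraries and 4835, 5016 and 5069.5 in labelled control libraries, a difference of 0.06 (SE 0.04, adjusted p = 0.289), and COL21A1 had 1889.9, 1837 and 2464 against 2527, 2683 and 2589 (-0.35, SE 0.10, adjusted p = 0.0528). Neither gene overlapped between the groups, and for COL21A1 labelled CRISPR library 3 lay nearest the control libraries. With all libraries, none of 5 tested FACIT genes passed in DMS454 by limma, against 18.9% of all genes. Without labelled CRISPR library 3 more collagen genes were lower, as given above, and whether FACITs were among them is not given here. In H1694, COL16A1 was the 1 of 5 that passed, against 17.6%.

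Other collagens. In H1299, 6 of 8 tested genes of this group rose in OE cells and none fell, and in A549 4 of 6 rose and none fell. Over all genes 13.5% rose in H1299 and 22.5% in A549. The H1299 genes that rose include COL8A1, which could be tested through its OE libraries alone. COL13A1, a transmembrane collagen of cell adhesion sites, had 758, 827 and 939 normalized counts in H1299 OE libraries and 155, 135 and 122 in control libraries. Every OE library was far above every control library, with a log2 fold change of 2.61 (SE 0.13, limma adjusted p = 1.2e-05), or 6.10-fold. In A549 it was too low to test, with at most 7.34 in OE libraries and 2.65 in control libraries.

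COL6A1 and COL6A2, neighbours on chromosome 21 that encode chains of the microfibrillar type VI collagen around cells, rose together in H1299. COL6A1 had 1964, 2914 and 2743 normalized counts in OE libraries and 1471, 1046 and 944 in control libraries (1.14, SE 0.19, adjusted p = 0.00405). COL6A2 had 2597, 3916 and 3670.0 in OE libraries and 1709, 1189.9 and 1069 in control libraries (1.37, SE 0.20, adjusted p = 0.00226). Both libraries numbered 1 lay toward the opposite group, although no OE library fell into the control range. Without those 2 libraries the changes were 1.51 and 1.75. In A549 the same genes changed little, COL6A1 by 0.20 (SE 0.06, adjusted p = 0.0107, and 0.0864 without OE library 1) and COL6A2 by 0.18 (SE 0.09, adjusted p = 0.0896). COL6A3, the remaining common type VI chain, was too low to test in A549 and was not analysed here in H1299.

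COL7A1, the anchoring fibril that ties epithelial basement membrane to stroma, had 4680.0, 5018 and 4789.8 normalized counts in A549 OE libraries and 1719, 1617 and 2016 in control libraries. It rose in all 3 OE libraries by 1.44 (SE 0.07, adjusted p = 7.1e-08), or 2.72-fold. In H1299 it overlapped, with 114, 122 and 118 in OE libraries and 147, 98.1 and 137 in control libraries (-0.09, SE 0.17, adjusted p = 0.722, and 0.05 without both libraries numbered 1). In H1694 it had 75.9, 169.9 and 170.0 in labelled CRISPR libraries and 104, 99.1 and 112 in labelled control libraries. Library 1 of the labelled CRISPR group was the lowest of the 6 while the other 2 were the highest, so the change was 0.31 (SE 0.32, adjusted p = 0.581) with it and 0.69 (adjusted p = 0.000625) without it.

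COL18A1 rose in both overexpressing lines. A549 had 7459.6, 7767 and 8111 normalized counts in OE libraries and 6552, 6361 and 6607 in control libraries, apart by a small margin (0.26, SE 0.04, adjusted p = 9.45e-08). H1299 had 1972, 3258 and 2987 in OE libraries and 2064, 1199 and 1253 in control libraries. There both libraries numbered 1 overlapped the opposite group, and the change of 0.88 (SE 0.24, adjusted p = 0.03) was 1.35 (adjusted p = 1.4e-14) without them. It did not pass without OE library 2 or 3 or control library 2 or 3 (adjusted p between 0.0964 and 0.105). DMS454 had 39.9, 40.0 and 62.2 in labelled CRISPR libraries and 69.2, 81.7 and 98.7 in labelled control libraries (-0.82, SE 0.21, adjusted p = 0.0184), a call lost without labelled CRISPR library 1 or 2 or labelled control library 2 or 3 (adjusted p between 0.0681 and 0.0969). Exons of COL18A1 share 1401 bases with SLC19A1 on the opposite strand, and no source used here gives the strand setting of the counting, so reads of the 2 genes may be mixed.

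Smaller or weaker calls completed the group. COL17A1, the transmembrane collagen of hemidesmosomes, had 314, 399 and 364 normalized counts in H1299 OE libraries and 298, 246 and 253 in control libraries (0.43, SE 0.13, adjusted p = 0.033), with an adjusted p of 0.105 to 0.130 without OE library 2 or 3 or control library 2 or 3. COL8A1 was low in H1299, with 19.6, 11.9 and 6.15 in OE libraries and 0.873, 2.04 and 2.08 in control libraries (2.25, SE 0.51, adjusted p = 0.0116), and it could be tested through its OE libraries alone. COL26A1 rose in A549 by 0.19 (SE 0.07, adjusted p = 0.0192), but not without OE library 1 or control library 2 (adjusted p = 0.0654 and 0.0848). COL8A2 was higher in DMS454 labelled CRISPR libraries, with 23.3, 22.2 and 22.4 against 10.9, 10.8 and 11.1 (0.99, SE 0.28, adjusted p = 0.0275), a call that ended when any library other than labelled CRISPR library 3 was left out (adjusted p = 0.0606 to 0.105). None of the 6 tested genes of this group passed in H1694 by limma.

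**Figure D4:**
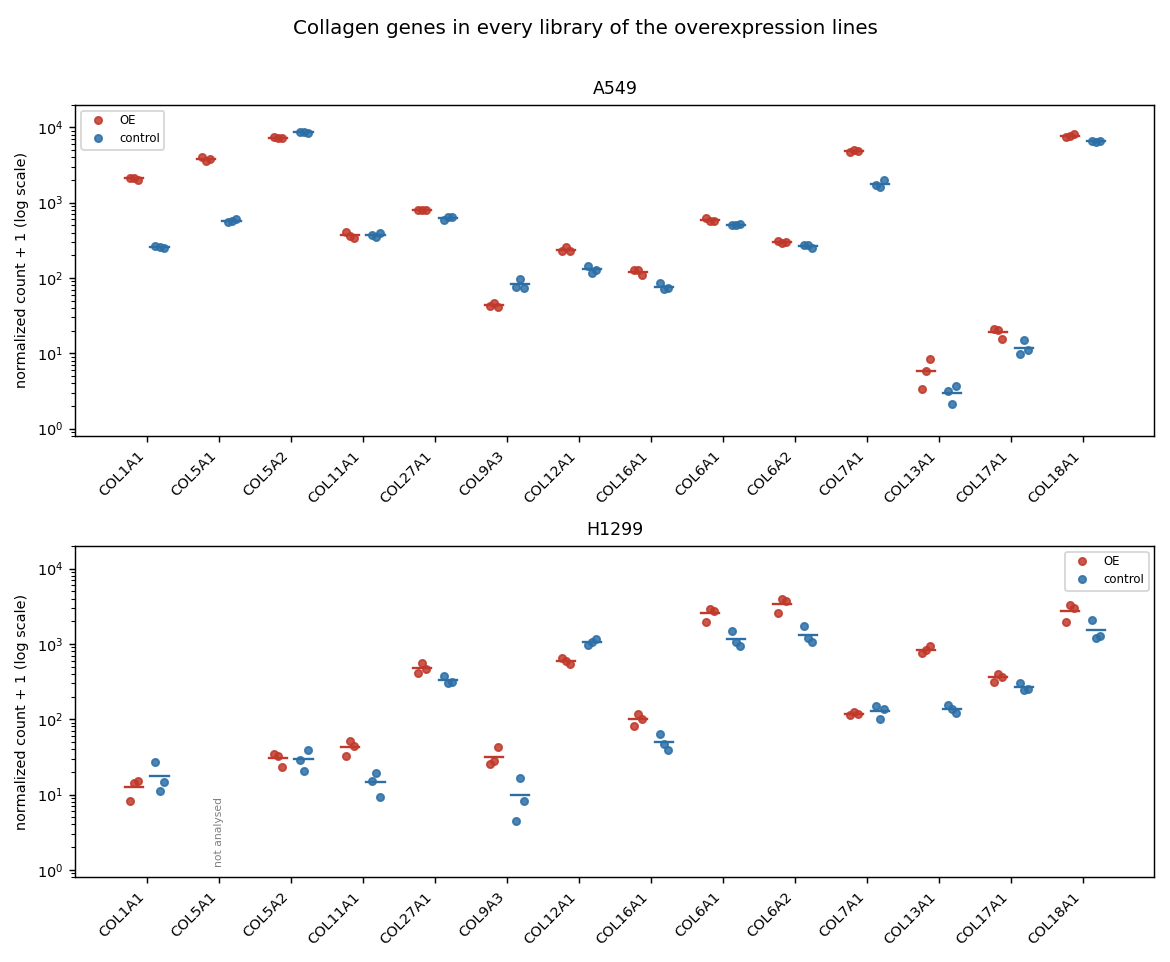
Normalized counts plus 1 (log axis) of 14 collagen genes in every library of A549 and H1299, with OE libraries in red left of control libraries in blue and bars for group means. COL1A1, COL5A1 and COL7A1 are set apart in A549, and COL13A1, COL6A1 and COL6A2 in H1299, while COL12A1 and COL9A3 shift in opposite directions.

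Differences between lines were tested as the contrast of the 2 within-line changes, over all genes tested in both lines. For overexpression, 15 collagen genes were tested in both A549 and H1299. The change was larger (more positive) in A549 for 3 and in H1299 for 6, in a background of 41.2% in either direction, 22.7% and 18.5%. COL1A1 differed most, by 3.47 (SE 0.41, limma adjusted p = 2.58e-05), followed by COL9A3 at -2.79 (SE 0.52, adjusted p = 0.000745). COL4A4 (-1.88), COL12A1 (1.72) and COL9A3 passed in both lines with opposite signs. In H1299, COL4A4 and COL9A3 could be tested through OE libraries alone, and those calls were lost in some fits that left a library out. Their differences, among the 6 on the H1299 side, add no support to that count. COL7A1 (1.53) stood on the A549 side, and COL11A1 (-1.60), COL6A2 (-1.19), COL6A1 (-0.95) and COL4A5 (-0.67) on the H1299 side. COL27A1, COL16A1, COL6A1 and COL18A1 rose in both lines, and of these COL6A1 passed the test of the difference. Without both H1299 libraries numbered 1, the differences of COL18A1 (-1.09), COL27A1 (-0.38) and COL16A1 (-0.65) passed too.

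For the libraries labelled CRISPR, 12 collagen genes were tested in both DMS454 and H1694, and the change was more positive in DMS454 for 4 and in H1694 for 1, in a background of 20.2% in either direction, 10.4% and 9.81%. COL4A3 differed by 3.11 (SE 0.46, adjusted p = 0.000848) and COL4A4 by 1.97 (SE 0.12, adjusted p = 2.31e-08). COL16A1 (1.23) and COL22A1 (0.71) followed. By limma COL22A1 passed in neither line alone, with 0.06 in DMS454 (adjusted p = 0.289) and -0.65 in H1694 (adjusted p = 0.113). Its level in labelled control libraries was 229 CPM in DMS454 and a low 1.20 CPM in H1694. COL1A1 differed by -0.77 (SE 0.26, adjusted p = 0.047), just past the threshold, and did not pass in most fits that left a library out. No collagen gene passed in the same direction in both of these lines by limma. The share of all genes that did so was not computed, so this cannot be read as particular to the 12 collagen genes.

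**Figure D5:**
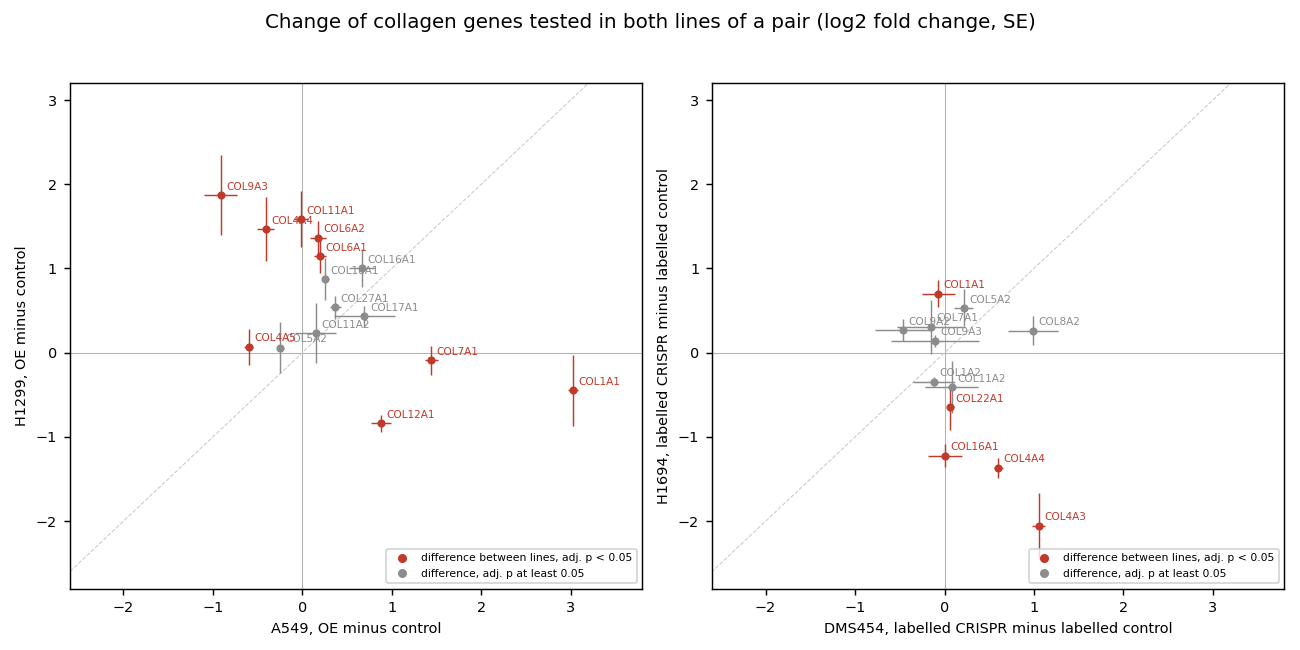
Log2 fold change of collagen genes tested in both lines of a pair, A549 across and H1299 up on the left, DMS454 across and H1694 up on the right, with bars for the SE. Red genes differed between the lines at an adjusted p under 0.05, and the dashed line marks equal change. COL1A1, COL7A1 and COL12A1 lie below the line in the left panel, and COL4A3 and COL4A4 lie farthest below it on the right.

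Genes that make, bind and break down collagen were read from lists of 52 genes in all. The lists were chosen with earlier results of these data known, so their counts are not independent of these data. Genes that reached the level for the test in 1 group alone were not set aside in them. In A549 the enzymes and chaperones that hydroxylate and fold collagen chains were mostly lower in OE cells, 14 of 18 tested, with 2 higher, where 21.9% of all genes were lower and 22.5% higher. P4HB, a subunit of prolyl 4-hydroxylase, fell by 0.38 (SE 0.03, limma adjusted p = 5.01e-13), and SERPINH1, the collagen chaperone HSP47, fell by 0.38 (SE 0.04). P4HA3, a catalytic subunit of prolyl 4-hydroxylase, rose by 1.13 (SE 0.10). Of 6 tested genes for propeptide cleavage and crosslinking, 3 rose, against those 22.5%, among them the lysyl oxidase LOXL2 (0.88, SE 0.04) and the procollagen C-proteinase BMP1 (0.45, SE 0.05). Collagen receptors split in the same background, 4 of 6 rising, with the fibrillar collagen receptor subunit ITGA11 up by 2.35 (SE 0.16), and 2 falling, with ITGA10 down (-1.74, SE 0.20). SPARC, which binds collagen, rose by 3.83 (SE 0.10, adjusted p = 2.38e-33), and the gelatinase MMP2 by 1.89 (SE 0.14).

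In H1299, 21 of 41 tested genes of these lists rose in OE cells and none fell, in the background of 13.5% higher and 15.3% lower given above. Among those averaging 50 or more normalized counts in the higher group, the proteases MMP2 (4.56, SE 0.22), MMP1 (2.25, SE 0.15) and MMP14 (1.95, SE 0.14), the crosslinking enzyme LOXL1 (2.20, SE 0.28), SPARC (1.71, SE 0.26) and the receptors ITGA2 (1.83, SE 0.09) and DDR1 (1.42, SE 0.14) rose. MMP14 fell in A549 (-0.45, SE 0.11).

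In the libraries labelled CRISPR, 9 of 39 tested genes were higher and 2 lower in DMS454, where 9.15% of all genes were higher and 9.72% lower. Among them were the receptor ITGA2 (0.84, SE 0.13), the lysyl hydroxylase PLOD3 (0.43, SE 0.06) and FAP (-0.54, SE 0.10), a protease that is also on the fibroblast marker list. The fibroblast list there summed to 208 to 249 normalized counts in labelled CRISPR libraries and 278 to 327 in labelled control libraries. Of its 6 genes, 2 were tested, FAP and PDGFRA. PDGFRA was higher (2.75) but ranked below FAP within those sums. Whether both groups reached the level for the test of PDGFRA is not given here, so its call adds no support. In H1694, 6 of 41 were higher and 13 lower, where 8.73% of all genes were higher and 8.9% lower. The crosslinking enzymes LOXL4 (-2.15, SE 0.06) and LOX (-1.53, SE 0.23), the procollagen proteinase TLL1 (-1.49, SE 0.17) and the collagen receptor DDR2 (-0.93, SE 0.21) were lower, and PLOD3 was lower too (-0.43, SE 0.05). MMP2 was higher (0.51, SE 0.06).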

How the data were processed

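RNA was sequenced from strand-specific libraries of total RNA after DNase treatment on the column, per the labels' protocols. The authors used CASAVA, FastQC, Trim Galore, STAR and DESeq2 with hg38, per the submitters' processing notes. Their versions, the read counter with its strand setting and the annotation were not given in the sources used here. Each deposited table gives, per library, a signal made by dividing counts by the authors' size factors. Its columns of the authors' comparison hold a mean signal, a log2 fold change with its error, a Wald score, and p-values before and after adjustment, all as deposited. The authors' fold changes take OE over control in A549 and H1299 and labelled control over labelled CRISPR in DMS454 and H1694. Groups come from sample titles.

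Whole reads were recovered from 100% of the values (tolerance 0.01) and gave read totals. Because the tables hold normalized values, limma 3.58.1 (trend and robust settings, R 4.3.3) on log2(value + 1) was the test, for genes with a mean of at least 10 in 1 group, with Benjamini-Hochberg adjustment over all genes and a threshold of 0.05. The same functions were tested on simulated data. P-values measure the spread between 3 replicate libraries per group. As alternatives, the edgeR 4.0.16 quasi-likelihood test and DESeq2 1.42.0 were run on the recovered reads, where edgeR called 7456, 4671, 3494 and 3078 genes in A549, H1299, DMS454 and H1694. TMM scaling, other filters and pseudocounts, a log2 fold change of at least 1, a replicate block and leaving out libraries were also tried. Gene names and exon lengths came from GENCODE release 29.

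The collagen genes and the pathway and marker lists were chosen with earlier results of these data known. Values in every library are given for up to 8 passing members per line with the largest change and a mean of at least 50, the same genes in other lines, and further members added after their values were seen. Up to 4 passing genes per pathway list were named by the same rule. The neuroendocrine marker list is not reported here.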

Additional observations from a re-analysis of the deposited data

Results flagged for a closer look

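These collagen genes differed between 2 lines in their response, by limma's test of the difference (adjusted p under 0.05). Values are differences of log2 fold changes. Of these genes, COL22A1 passed in neither DMS454 nor H1694 alone, and its level in H1694 was low. A549 minus H1299 gave 3.47 for COL1A1 (3.03 in A549, -0.45 in H1299), 1.72 for COL12A1 (0.88 and -0.84) and 1.53 for COL7A1 (1.44 and -0.09). It gave -2.79 for COL9A3 (-0.91 and 1.87), -1.88 for COL4A4 (-0.41 and 1.47), -1.60 for COL11A1 (-0.02 and 1.58), -1.19 for COL6A2 (0.18 and 1.37), -0.95 for COL6A1 (0.20 and 1.14) and -0.67 for COL4A5 (-0.60 and 0.07). COL9A3 and COL4A4 could be tested in H1299 through OE libraries alone, and their H1299 calls were lost in some fits that left a library out. In the libraries labelled CRISPR, DMS454 minus H1694 gave 3.11 for COL4A3 (1.05 and -2.06), 1.97 for COL4A4 (0.60 and -1.37), 1.23 for COL16A1 (0.01 and -1.22), 0.71 for COL22A1 (0.06 and -0.65) and -0.77 for COL1A1 (-0.07 and 0.70).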

How the results depend on the processing

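Counts of collagen genes that passed kept within 1.5 times of the values reported in 254 of 288 counts over the alternatives tried. Requiring a log2 fold change of at least 1 left 7 in A549, 3 in DMS454, 4 in H1694 and 3 in the difference between DMS454 and H1694. A filter at a mean of 50 left 7 higher in H1299, 5 differences (3 lower) between A549 and H1299 and 3 (2 higher) between DMS454 and H1694. With that filter 35.3% of all genes passed in H1299, 47.7% between A549 and H1299 and 25.5% between DMS454 and H1694. No filter gave 5 higher in H1694, and TMM scaling left 0 lower between DMS454 and H1694, where COL1A1 went to an adjusted p of 0.0524. Leaving out single libraries of H1299 gave 7 to 12 passing and 6 to 11 higher. The share of all genes passing in either direction was then 16.5% to 33.4%. For DMS454 such fits gave 4 to 11 passing and 2 to 8 lower, with a share of 10.4% to 34.9%. For H1694 they gave 2 to 6 higher, with a share of 10.3% to 25.3%. The difference between those 2 lines had 0 to 1 lower, with a share of 15.5% to 27%. Because the shares of all genes moved as well, these ranges cannot be read as particular to collagen genes. By DESeq2 the A549 calls of COL24A1 and COL26A1 and the DMS454 call of COL8A2 were lost (adjusted p = 0.0588, 0.0798 and 0.124). Without a filter COL8A2 was lost too (0.0527).

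The replicate numbers gave no consistent pairing of the samples. Deviations from the group mean of same-numbered libraries had correlations from -0.12 to 0.03 in A549. The range was -0.79 to -0.44 for H1299, 0.02 to 0.07 for DMS454 and -0.18 to 0.35 for H1694. Libraries of unlike number were related in H1299. OE library 1 had correlations of 0.51 and 0.66 with control libraries 2 and 3. Control library 1 had 0.61 and 0.64 with OE libraries 2 and 3. With a replicate block, 6 collagen genes passed in H1299, 5 of them higher, where 10.1% of all genes passed in either direction. H1299 COL16A1, COL17A1, COL18A1, COL27A1, COL4A4 and COL8A1 were lost, as was the difference of COL4A5 between A549 and H1299, while COL9A3 passed in H1694 (limma adjusted p = 0.0387).

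Of 1239 fold changes of collagen genes over the alternatives, 23 reversed, and none of those had passed the test. Without both libraries numbered 1, H1299 COL1A1 was 0.20 and COL7A1 0.046. By edgeR, H1694 COL6A2 was -0.10. The others reversed with 1 library left out. In H1299 the fold changes then ran from -0.27 to 0.023 for COL7A1. In DMS454 they ran from -0.56 to 0.081 for COL7A1, -0.27 to 0.12 for COL1A2, -0.24 to 0.057 for COL1A1, -0.074 to 0.089 for COL16A1 and -0.63 to 0.25 for COL9A3. In H1694 they ran from -0.042 to 0.64 for COL13A1, -0.0066 to 0.19 for COL12A1 and -0.37 to 0.51 for COL6A2. The difference of COL9A3 between DMS454 and H1694 ran from -0.77 to 0.11. The cause was not tested. With no filter 33 collagen genes were tested in A549, 25 in H1299, 40 in DMS454 and 35 in H1694. Of these 21, 12, 7 and 9 passed, against 34.9%, 21.8%, 10.5% and 10.6% of all genes in that order.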
